A study of Mus musculus with 25 samples.

Results

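The genes described here encode proteins that coat cytoplasmic lipid droplets and set how droplets form, fuse and release fat. They are the perilipins Plin2, Plin3, Plin4 and Plin5, the CIDE genes Cidea, Cideb and Cidec, the lipolysis inhibitor G0s2, and the FIT genes Fitm1 and Fitm2. The rule is a list of gene symbols and uses no measured value, but the list was drawn up with earlier results of these data known. They are 10 of the 24537 genes in the deposited count table, and all 10 were among the 14133 genes with enough reads to be tested.

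A lipid droplet is a store of triglyceride and cholesteryl ester under a single layer of phospholipid, and proteins on that layer decide which lipases reach the core. Perilipins cover the surface and shield the fat from lipases, CIDE proteins gather at contacts between droplets and let fat pass from the smaller to the larger, and FIT proteins of the endoplasmic reticulum help new droplets to bud. G0s2 binds and inhibits adipose triglyceride lipase (Pnpla2). In hepatocytes Plin2 is the main coat protein, while Cidec and Plin4 are best known from adipocytes and are also made by fatty liver.

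RNA of flash-frozen liver was sequenced as polyA libraries with paired reads of 75 bases from male C57BL6/J mice aged 24 months. The groups crossed genotype with diet, and all 4 carried a knockout: Rosa26KO on control diet (Control_Rosa26KO, n = 6), Rosa26KO on a high-fat diet, HFD (HFD_Rosa26KO, n = 6), p53KO on control diet (Control_p53KO, n = 6) and p53KO on HFD (HFD_p53KO, n = 7). Rosa26 is a permissive locus commonly targeted as a control, and p53 is the tumour suppressor encoded by Trp53. How, and in which cells, the genes were knocked out is not in the labels, nor is the composition or length of the diet. Nor do the labels say that each library is a separate animal, so p-values measure the spread between these samples, which may be technical.

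Total counts ran from 16324283 to 21501281 per library. Levels are given in CPM, read counts scaled to library size (TMM), and differences as log2 fold changes from 1 edgeR quasi-likelihood fit to all 25 libraries, with p-values adjusted by Benjamini-Hochberg over the 14133 genes. A gene is called where that adjusted p is under 0.05. Trp53 ran from 30.6 to 43.8 CPM in the Rosa26KO libraries and from 17.2 to 35.6 CPM in the p53KO libraries, ranges that overlap. Its log2 fold change in p53KO against Rosa26KO was -0.61 on control diet, -0.51 on HFD and -0.56 in the average of both diets. Each had an unadjusted edgeR p under 0.05 but none was called (adjusted p for the average 0.210). Hepatocyte markers were abundant in every library, with a summed level of 72224 to 198241 CPM over 10 genes. Summed neutrophil markers were 585.5 CPM in Control_p53KO 1, 376.7 CPM in HFD_Rosa26KO 6 and 75.1 CPM in Control_p53KO 3, against 3.72 to 36.0 CPM in the others. In RNA from whole tissue, fewer cells of a type and less RNA per cell cannot be told apart.

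The promoters of the 4 genes called for diet in the average of both genotypes are shown. Pparg, which encodes a nuclear receptor known to act through pairs of AGGTCA-like sites, was also called higher in that average. Whether it acts on these genes here was not tested. The RefSeq promoter table (GRCm38.p6) had windows for 9 of the 10 genes, 11 windows in all, and none for Cidea. Each stretch below ends directly upstream of the gene's start in GENCODE M21, which lies 1 base before the start in the RefSeq window for Plin2, 21 bases before it for Plin4 and 48 bases before it for Plin5, and is the same base for Fitm2. Each reads 5′ to 3′ on the minus strand of its chromosome, and has in capitals the letters found by the search: AGGTCA or its complement TGACCT in Plin2 (chr4:86670061-86670309) and Plin5 (chr17:56117597-56117798), and the TATA-like word CTATAAGG in Plin4 (chr17:56109804-56110032). Fitm2 (chr2:163472630-163472879) held none of these words.
Plin2: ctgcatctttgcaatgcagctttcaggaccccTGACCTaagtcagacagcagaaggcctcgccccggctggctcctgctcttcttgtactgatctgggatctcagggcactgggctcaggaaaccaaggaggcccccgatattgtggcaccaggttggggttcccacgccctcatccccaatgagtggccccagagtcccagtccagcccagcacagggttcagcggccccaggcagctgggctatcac
Plin4: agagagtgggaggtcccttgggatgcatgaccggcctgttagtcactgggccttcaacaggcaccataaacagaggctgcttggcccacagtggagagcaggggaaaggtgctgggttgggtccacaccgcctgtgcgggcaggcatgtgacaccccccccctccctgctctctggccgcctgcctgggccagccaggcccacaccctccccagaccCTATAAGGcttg
Plin5: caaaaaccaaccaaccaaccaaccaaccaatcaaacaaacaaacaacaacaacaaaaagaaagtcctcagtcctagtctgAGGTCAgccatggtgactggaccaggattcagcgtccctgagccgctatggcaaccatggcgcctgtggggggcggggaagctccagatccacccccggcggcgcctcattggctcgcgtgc
Fitm2: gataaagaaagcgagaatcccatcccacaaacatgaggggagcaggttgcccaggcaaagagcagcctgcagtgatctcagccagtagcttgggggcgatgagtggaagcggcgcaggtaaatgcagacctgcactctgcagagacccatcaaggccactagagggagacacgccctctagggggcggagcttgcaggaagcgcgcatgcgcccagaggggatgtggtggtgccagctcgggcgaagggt

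The word AGGTCA, searched on both strands, occurred in 3 of the 11 windows of 300 bases for these genes (1 of Plin2 and both of Plin5, which overlap), and in 16.3% of all 32851 windows of the table. In Plin2 it lay on the opposite strand 217 bases before the GENCODE start. In Plin5 it lay on the gene's strand 122 bases before that start, and once more, within the gene, at base 312 counted from it. The direct repeat of AGGNCA with 1 base between its copies, the class of site bound by PPAR with RXR, was in 0 of the 11 windows and in 0.381% of all. CTATAAGG was chosen after the sequences were seen. It lay 12 bases before the GENCODE start of Plin4 and, in Plin5, at base 21 counted from that start, so beyond the stretch shown. From the RefSeq starts the word lay 33 and 28 bases upstream. It occurred in 2 of the 11 windows and 0.417% of all. A match describes letters in these windows, and nothing follows from the absence of one.

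Plin4 rose 5.50-fold in Rosa26KO and 4.51-fold in p53KO, Plin2 rose in p53KO, and in the average of both genotypes Plin2, Plin4, Plin5 and Fitm2 rose. No gene of the 10 fell with diet (1.06% of all tested genes were called lower in Rosa26KO, 1.25% in p53KO and 5.07% in the average), and none differed between p53KO and Rosa26KO. By count, 1 of the 10 was called higher on HFD in Rosa26KO (0.446% of all tested genes were called higher and 1.51% in either direction), 2 in p53KO (1.62% higher, 2.87% in either direction) and 4 in the average (4.64% higher, 9.71% in either direction). The median log2 fold change over the 10 was 0.19 in Rosa26KO, 0.58 in p53KO and 0.44 in the average, against 0.00, -0.02 and -0.01 over all tested genes.

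Plin4, a perilipin with long repeats that binds small and newly made droplets, lies at chr17:56100591-56109803 on the minus strand (GRCm38, GENCODE M21) beside Plin5. On control diet Plin4 ran from 7.85 to 20.4 CPM (median 15.6) in Rosa26KO and from 3.82 to 22.7 CPM (median 16.8) in p53KO. On HFD it ran from 44.5 to 114 CPM (median 87.3) in Rosa26KO and from 42.2 to 95.1 CPM (median 74.6) in p53KO. Every HFD library was above every control-diet library, in either genotype and across them. The fitted rise was 5.50-fold in Rosa26KO (95% interval 3.42 to 8.83, log2 fold change 2.46, SE 0.33, edgeR adjusted p 0.000897) and 4.51-fold in p53KO (2.85 to 7.15, log2 fold change 2.17, SE 0.32, adjusted p 0.00139). By p-value it ranked 2 of 14133 in Rosa26KO, 6 in p53KO and 3 in the average of both (log2 fold change 2.32, adjusted p 2.25e-06). A two-sided exact permutation test of CPM gave 0.00216 in Rosa26KO and 0.00117 in p53KO, the smallest values these group sizes allow. Unadjusted, that test of diet was also under 0.05 for Plin2 in Rosa26KO (0.0303) and in p53KO (0.00350). In p53KO alone it was under 0.05 for Plin5 (0.00466), Fitm2 (0.00233) and Cidec (0.0186), and for none of the remaining genes in either genotype. The call of Plin4 held in each of the 12, 13 and 25 fits with 1 library left out. Of the other settings tried, only the fit to library names 1949 to 1965 lost it, in p53KO (log2 fold change 1.76, adjusted p 0.0527).

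Plin2 (chr4:86648386-86670060, minus strand), the coat protein found on droplets of most cells and stabilised by fat, had the highest mean level per kilobase over the 25 libraries. On control diet Plin2 ran from 342 to 629 CPM (median 450) in Rosa26KO and from 219 to 577 CPM (median 349) in p53KO. HFD livers ranged from 352 to 848 CPM (median 768) in Rosa26KO and from 494 to 932 CPM (median 755) in p53KO. In Rosa26KO 5 of 6 HFD libraries were above all controls, and the exception, HFD_Rosa26KO 6, was the library of high neutrophil markers. In p53KO 5 of 7 were above all controls, with HFD_p53KO 5 and 7 inside the control range. The rise was called in p53KO (1.96-fold, 95% interval 1.43 to 2.68, log2 fold change 0.97, SE 0.22, edgeR adjusted p 0.0177) and in the average (1.70-fold, 1.36 to 2.13, adjusted p 0.00322). In Rosa26KO the log2 fold change was 0.57 (SE 0.22), with an adjusted p of 0.194. It passed there in limma voom, which was run with a quality weight for each library (0.73, adjusted p 0.00499). It also passed without the 3 libraries of highest neutrophil markers, a setting added after the data were seen (0.70, adjusted p 0.0364). In none of the other settings adjusted over all genes did it pass. Without those 3 libraries the value in p53KO was 0.78 with an adjusted p of 0.0317. The call in p53KO was lost in a fit to those 2 groups alone (log2 fold change 0.96, adjusted p 0.0673) and in library names 1949 to 1965 (0.78, adjusted p 0.220), and that in the average was lost in those names (0.69, adjusted p 0.0565).

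Plin5 (chr17:56111601-56117596, minus strand) marks droplets of tissues that burn fat and ties them to mitochondria. On control diet Plin5 ran from 20.9 to 38.4 CPM (median 29.7) in Rosa26KO and from 14.9 to 31.3 CPM (median 20.9) in p53KO. The range on HFD was from 22.6 to 53.2 CPM (median 37.3) in Rosa26KO and from 25.2 to 41.2 CPM (median 38.6) in p53KO. The diet groups overlapped in Rosa26KO, where 3 of 6 HFD libraries were above all controls, and less in p53KO, where 6 of 7 were. The rise was called in the average (1.43-fold, 95% interval 1.17 to 1.76, log2 fold change 0.52, SE 0.14, edgeR adjusted p 0.0233). The log2 fold change was 0.37 in Rosa26KO (adjusted p 0.357) and 0.67 in p53KO (adjusted p 0.0659). The value in p53KO passed in DESeq2 (0.66, adjusted p 0.0272), in limma voom (0.70, adjusted p 0.0152), with the replicate block (0.70, adjusted p 0.0342) and in 2 of 13 fits with 1 library left out (Control_p53KO 4, with an adjusted p of 0.0300, or HFD_p53KO 5). The call in the average was lost without the 4 libraries of highest acute phase genes (0.41, adjusted p 0.0956) and in library names 1949 to 1965 (0.42, adjusted p 0.241).

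Plin3 (chr17:56277476-56292873, minus strand), a perilipin that moves from the cytosol onto forming droplets, was the steadiest of the 10. On control diet Plin3 ran from 64.5 to 85.0 CPM (median 72.6) in Rosa26KO and from 46.3 to 83.3 CPM (median 70.6) in p53KO. On HFD it ran from 59.3 to 82.6 CPM (median 69.4) in Rosa26KO and from 59.0 to 71.1 CPM (median 65.2) in p53KO. The 4 groups lay over each other. The log2 fold change with diet was -0.09 in Rosa26KO (95% interval -0.32 to 0.14) and -0.04 in p53KO (-0.26 to 0.18).

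**Figure D1:**
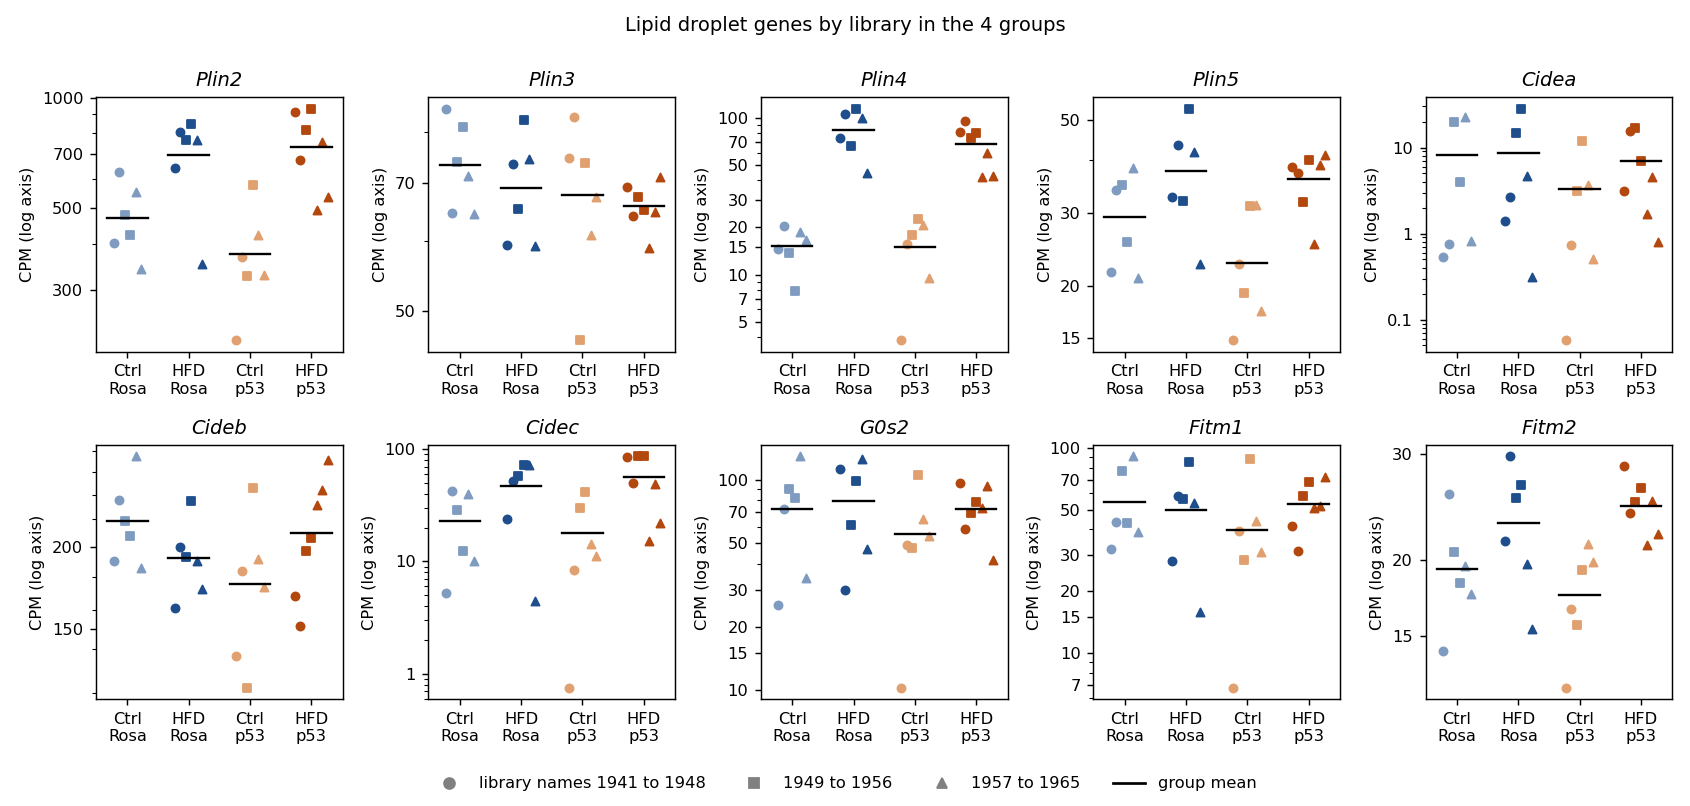
Level of each of the 10 genes in CPM on a logarithmic axis, 1 point per library, in the order Control_Rosa26KO, HFD_Rosa26KO, Control_p53KO and HFD_p53KO; symbols give the run of library names and black lines the group means. The HFD libraries of Plin4 lie at 42.2 to 114 CPM, all above the control-diet libraries at 3.82 to 22.7 CPM, while the groups of Plin3 lie over each other.

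Among the CIDE genes, which join droplets into larger ones, no difference between diets was called by edgeR. Cidec (chr6:113424634-113435760, minus strand), which gives adipocytes their single large droplet, had the largest fitted value after Plin4. On control diet Cidec ran from 5.25 to 42.3 CPM (median 20.4) in Rosa26KO and from 0.752 to 41.9 CPM (median 12.8) in p53KO. Values on HFD went from 4.48 to 72.2 CPM (median 54.9) in Rosa26KO and from 15.3 to 86.5 CPM (median 49.996) in p53KO. In Rosa26KO 4 of 6 HFD libraries were above all controls and HFD_Rosa26KO 6 was below all of them, while in p53KO 5 of 7 were above. The log2 fold change was 1.03 in Rosa26KO (SE 0.66, edgeR adjusted p 0.426), 1.66 in p53KO (SE 0.66, adjusted p 0.162) and 1.35 in the average (95% interval 0.38 to 2.31, adjusted p 0.0691). The average passed the threshold in DESeq2 (1.34, adjusted p 0.0376), in limma voom (2.07, adjusted p 0.000974), with the replicate block (1.57, adjusted p 0.0266) and with a term for the run of library names (1.37, adjusted p 0.0463). It also passed without the 3 libraries of highest neutrophil markers (1.42, adjusted p 0.0188) and in 5 of 25 fits with 1 library left out (Control_Rosa26KO 2, HFD_Rosa26KO 6, Control_p53KO 3, Control_p53KO 4 or HFD_p53KO 7). In single genotypes, with p-values adjusted over all genes, Cidec passed only in limma voom with its library weights. The values there were 1.56 in Rosa26KO (adjusted p 0.0492) and 2.58 in p53KO (adjusted p 0.0131). An exact permutation test of CPM, unadjusted, gave 0.0974 in Rosa26KO and 0.0186 in p53KO. Whether the diets differ in Cidec thus depends on the tool and setting.

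Cidea, on chromosome 18, a CIDE gene of brown fat that fatty liver also makes, was the most variable of the 10. On control diet Cidea ran from 0.535 to 22.9 CPM (median 2.38) in Rosa26KO and from 0.0578 to 11.8 CPM (median 1.94) in p53KO. HFD libraries ran from 0.313 to 28.2 CPM (median 3.66) in Rosa26KO and from 0.802 to 16.7 CPM (median 4.50) in p53KO. High and low libraries occurred in every group, and the highest library was 488-fold above the lowest. The lowest value, 0.0578 CPM in Control_p53KO 1, is under the 0.184 CPM that counting error allows for 0 reads. The size of that fold is therefore not reliable. The log2 fold change was 0.10 in Rosa26KO (95% interval -2.01 to 2.21) and 1.09 in p53KO (-1.02 to 3.21), a spread in which no diet difference was detectable. The value in p53KO ranged from 0.72 without HFD_p53KO 3 to 2.11 without Control_p53KO 4.

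Cideb (chr14:55754050-55758458, minus strand), the CIDE gene of hepatocytes with a role in the lipidation of very-low-density lipoprotein, has 1136 of its 1488 exon bases (76.3%) over exons of Nop9 on the plus strand. The strand of counting is not given in the sources used here, and the 2 genes correlated at a Pearson r of 0.995 over 25 libraries, so the Cideb values are uncertain. On control diet Cideb ran from 185 to 275 CPM (median 213) in Rosa26KO and from 122 to 246 CPM (median 179) in p53KO. On HFD it ran from 161 to 235 CPM (median 191) in Rosa26KO and from 152 to 271 CPM (median 206) in p53KO. The groups overlapped. The log2 fold change with diet was -0.19 in Rosa26KO (95% interval -0.51 to 0.13) and 0.26 in p53KO (-0.05 to 0.57), and Nop9 gave -0.19 and 0.25.

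G0s2 (chr1:193272161-193273217, minus strand) was not called in any comparison. On control diet G0s2 ran from 25.5 to 130 CPM (median 77.3) in Rosa26KO and from 10.3 to 105 CPM (median 51.7) in p53KO. HFD livers ranged from 29.8 to 126 CPM (median 79.9) in Rosa26KO and from 41.7 to 96.6 CPM (median 73.3) in p53KO. No HFD library lay above or below all controls of its genotype. The log2 fold change was 0.13 in Rosa26KO (95% interval -0.73 to 0.99) and 0.41 in p53KO (-0.43 to 1.24), which does not show that G0s2 was unaffected. In p53KO it was 0.19 without Control_p53KO 1 and 0.69 without Control_p53KO 4.

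Fitm2 (chr2:163466379-163472629, minus strand) is the FIT gene of most tissues, and Fitm1 that of skeletal muscle and heart. On control diet Fitm2 ran from 14.1 to 25.7 CPM (median 19.0) in Rosa26KO and from 12.3 to 21.3 CPM (median 17.9) in p53KO. On HFD the gene ran from 15.4 to 29.7 CPM (median 23.4) in Rosa26KO and from 21.2 to 28.7 CPM (median 24.96) in p53KO. The groups overlapped widely in Rosa26KO, where 2 of 6 HFD libraries were above all controls, while in p53KO 6 of 7 were. The rise was called in the average (1.29-fold, 95% interval 1.12 to 1.502, log2 fold change 0.37, SE 0.10, edgeR adjusted p 0.0243), with 0.25 in Rosa26KO (adjusted p 0.383) and 0.49 in p53KO (adjusted p 0.0624). The value in p53KO passed in DESeq2 (0.49, adjusted p 0.0272), in limma voom (0.47, adjusted p 0.0187) and with the replicate block (0.53, adjusted p 0.0467), and that in Rosa26KO in limma voom (0.35, adjusted p 0.0402). The call in the average was lost without the 4 libraries of highest acute phase genes (0.31, adjusted p 0.0585) and in library names 1949 to 1965 (0.26, adjusted p 0.167). Of the exon bases of Fitm2, 5.72% overlap the antisense gene 2310001K24Rik.

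Fitm1 (chr14:55575617-55576954, plus strand, with 11.2% of its exon bases over the antisense gene Gm15932) was read in every library. On control diet Fitm1 ran from 32.02 to 91.0 CPM (median 43.1) in Rosa26KO and from 6.77 to 88.2 CPM (median 35.2) in p53KO. HFD libraries ran from 15.7 to 85.6 CPM (median 55.3) in Rosa26KO and from 31.2 to 71.7 CPM (median 51.9) in p53KO. The groups overlapped, with log2 fold changes of -0.12 in Rosa26KO (95% interval -0.98 to 0.73) and 0.43 in p53KO (-0.40 to 1.26). In p53KO it was 0.20 without Control_p53KO 1 and 0.83 without Control_p53KO 4. Skeletal muscle markers (7 genes, Acta1 and Ckm among them) summed to 0.352 to 1.52 CPM per library, so markers of muscle were near 0 in libraries where Fitm1 was read.

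Markers of other cells were read beside the diet results. Of 7 adipocyte markers, Adipoq had 6 reads, Plin1 3 reads, Ucp1 5 reads and Retn 32 reads over all 25 libraries. Lep had 0 reads, which allows up to 0.184 CPM per library, a limit for counting error only. Adrb3 and Cfd were read in every library and were the only 2 of the 7 tested. Cfd rose in the average (log2 fold change 1.98, edgeR adjusted p 0.0180), while the fitted value of Adrb3 was not above 0. The median of the 2 was 0.90. The summed level of the list was 5.97 to 25.6 CPM and 6.78 to 16.6 CPM on control diet, and 10.5 to 28.8 CPM and 8.50 to 33.3 CPM on HFD, for Rosa26KO and p53KO in turn.

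Of the 10 hepatocyte markers, 5 fell in the average (Cps1, Apoa1, Alb, Ass1 and Tat) and 0 rose, and the median log2 fold change of the list was -0.57. Their summed level ran from 120123 to 182708 CPM in Control_Rosa26KO and 78462 to 198241 CPM in HFD_Rosa26KO. It ran from 91868 to 190020 CPM in Control_p53KO and 72224 to 139679 CPM in HFD_p53KO. Of 7 markers of lipid-associated macrophages 1, Mmp12, rose in the average (log2 fold change 1.96, adjusted p 0.0113), and the list's median was 0.48. Of 7 hepatic stellate cell markers 1, Reln, fell in the average (-0.57, adjusted p 0.0380), with a list median of 0.09. Of 6 sinusoidal endothelial markers 1, Clec4g, fell (-0.58, adjusted p 0.00816), with a list median of -0.28. None of the Kupffer cell (6), cholangiocyte (4) or acute phase (8) genes was called with diet, with medians of -0.32, -0.33 and -0.87 in the average.

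Of 10 neutrophil markers 9 were tested and none was called with diet, but their fitted values ran opposite ways in the genotypes. All 9 were above 0 in Rosa26KO (median 3.19, 7 at an unadjusted p under 0.05) and all 9 below 0 in p53KO (median -2.82, 8 at an unadjusted p under 0.05). The highest summed level was 376.7 CPM in the HFD_Rosa26KO group and 585.5 CPM in the Control_p53KO group, while the group medians were 7.43 and 19.9 CPM in Rosa26KO and 13.1 and 10.99 CPM in p53KO, on control diet and HFD in turn. The part of these cells in the droplet gene results was not tested.

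The diet response was next compared between genotypes by the interaction, which is the log2 fold change with HFD in p53KO less the one in Rosa26KO. None of the 10 was called, nor was any of the 14133 genes (0.0% called, and 1221 at an unadjusted p under 0.05 in edgeR, against 5 called by DESeq2). For Plin4 the interaction was -0.29 on the log2 scale (95% interval -1.19 to 0.62), and for Plin2 it was 0.40 (-0.24 to 1.04). Plin5 had 0.30 (-0.28 to 0.89), Fitm2 0.24 (-0.19 to 0.67) and Cidec 0.63 (-1.25 to 2.52). The smallest unadjusted p of the 10 was that of Cideb (0.45, interval 0.00 to 0.89, adjusted p 0.573), and Nop9 gave 0.44. The value was above 0 for 9 of the 10, against 48.9% of all tested genes. The median was 0.35, against -0.01 over all genes. These signs are not independent, since the genes correlate between libraries and Control_p53KO 1 was the lowest library for 8 of the 10. A call of Plin2 in p53KO and not in Rosa26KO is therefore not a difference shown between the genotypes, and these intervals do not show that the responses were alike.

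p53KO was compared with Rosa26KO within each diet to see whether genotype altered the droplet genes. None of the 10 was called on control diet, on HFD or in the average, as was the case for all 14133 genes in edgeR (0.0% called in each, with 1408, 509 and 573 at an unadjusted p under 0.05, and 1, 1 and 7 called by DESeq2). On control diet the fitted value was below 0 for all 10, while 51.9% of all tested genes were above 0. The median was -0.35 against 0.01 over all genes. These signs too are not independent, as they share the group of Control_p53KO 1. The values nearest to the threshold were those of Cideb (-0.32, 95% interval -0.64 to 0.00, adjusted p 0.505) and Plin5 (-0.36, -0.79 to 0.06, adjusted p 0.530). Plin2 had -0.33 (-0.79 to 0.13) and Plin4 -0.02 (-0.68 to 0.64). Plin4 was above 0 in 5 of 12 fits with 1 library left out, up to 0.18 without Control_p53KO 1. Without Control_p53KO 1 the value of Plin2 was -0.22, and without Control_p53KO 4 it was -0.50. On HFD 5 of the 10 were above 0 (52.8% of all tested genes), with a median of 0.01. Plin2 had 0.07 (-0.37 to 0.51) and Plin4 -0.31 (-0.92 to 0.31). The comparisons share groups with those of diet, and the values are side by side in the plot of fitted differences.

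**Figure D2:**
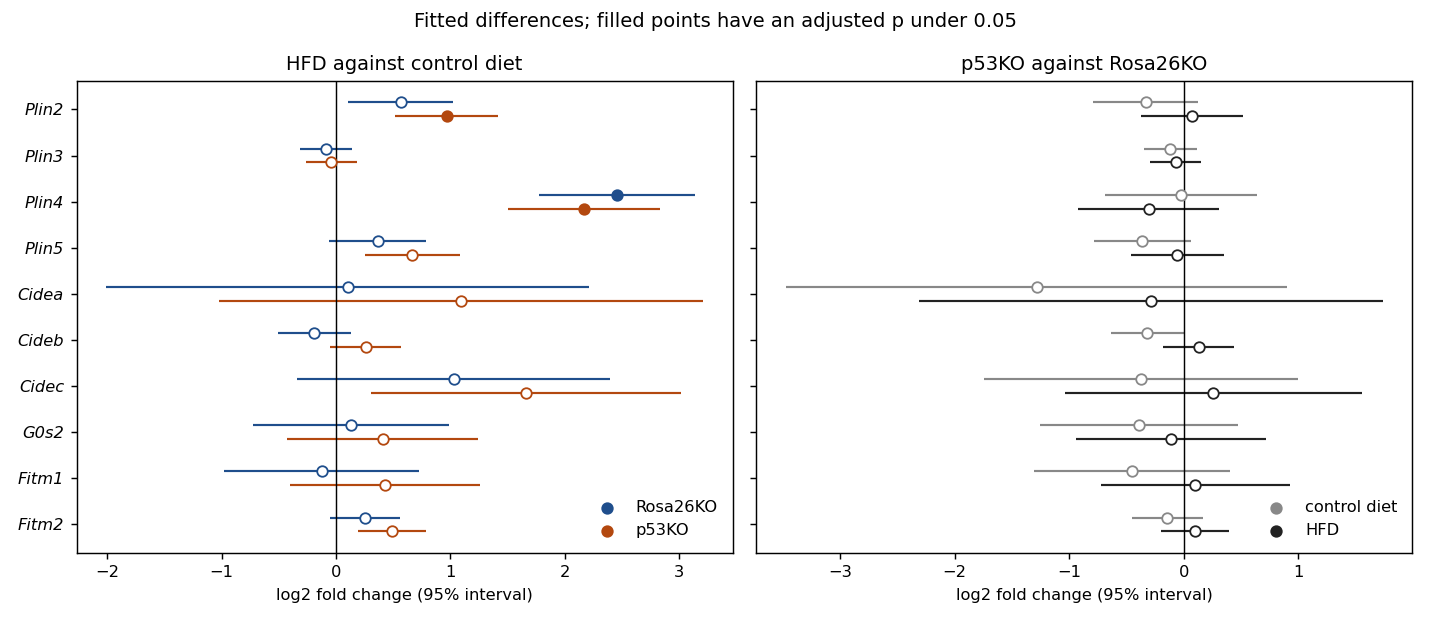
Log2 fold change (horizontal axis) of each gene from the edgeR fit with its 95% interval, for HFD against control diet in each genotype (left) and p53KO against Rosa26KO on each diet (right). Filled points, those of Plin4 in both genotypes and of Plin2 in p53KO, have an adjusted p under 0.05, and every point on the right is open.

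The levels of the 10 genes were ranked by CPM per kilobase of exon. Over the 25 libraries, which mix the diets, the mean and SD were 163.7 ± 59.4 for Plin2, 134.1 ± 25.9 for Cideb, 80.5 ± 36.0 for G0s2 and 50.9 ± 22.6 for Fitm1. The other 6 genes had means of 5.36 to 19.9 CPM per kilobase. The order was therefore read within groups. The level and place of Cideb are uncertain, since 76.3% of its exon bases overlap Nop9 and the strand of counting is not given. On control diet Cideb was highest (147 ± 22.2 in Rosa26KO and 118 ± 29.6 in p53KO), followed by Plin2 (134 ± 30.0 and 106 ± 34.2), closer than the SD of either gene. On HFD Plin2 was highest (198 ± 52.0 and 208 ± 49.2), above Cideb (129 ± 17.1 and 141 ± 28.3) by more than either SD.

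G0s2 and then Fitm1 followed in all 4 groups, and G0s2 exceeded Fitm1 by more than either SD only in HFD_p53KO (83.9 ± 21.98 against 54.9 ± 14.7). Cidec lay below Plin3 and Plin5 on control diet (12.4 ± 8.62 against 19.4 ± 2.23 and 14.0 ± 3.57 in Rosa26KO, 9.58 ± 8.23 against 17.9 ± 3.41 and 10.9 ± 3.34 in p53KO), but below Plin5 by less than the SD of either gene. On HFD it lay above both (25.4 ± 14.8 against 18.3 ± 2.46 and 18.0 ± 5.14, and 30.3 ± 16.4 against 17.4 ± 1.03 and 17.3 ± 2.72), by less than the SD of Cidec. Plin4 was the lowest of the 10 on control diet (2.65 ± 0.764 and 2.61 ± 1.24), though in p53KO below Cidea (2.97 ± 3.94) by less than the SD of either gene. On HFD it ranked 8 of 10, at 14.6 ± 4.66 next to Plin5 in Rosa26KO, a gap within the SD of either gene, and at 11.8 ± 3.52 in p53KO, below Plin5 by more than either SD. Fitm2 was the lowest on HFD (5.81 ± 1.31 and 6.204 ± 0.636), within the SD of Cidea (7.77 ± 9.78 and 6.31 ± 5.83).

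Single libraries held many extremes at once. Control_p53KO 1 was the lowest of all 25 for 8 of the 10 genes, every one but Plin3 and Cideb, for which Control_p53KO 3 was lowest. In Control_p53KO 1 Cidec was at 0.752 CPM, G0s2 at 10.3 CPM and Fitm1 at 6.77 CPM, while Plin3, at 74.7 CPM, ranked 21 of 25. HFD_Rosa26KO 6 was lowest in its group for 8 of the 10 genes, and HFD_p53KO 5 for 6. At the other end, Control_p53KO 4 and HFD_Rosa26KO 4 were each the highest of their group for 7. Control_p53KO 1 and HFD_Rosa26KO 6 were also the libraries of highest neutrophil markers. Control_p53KO 1 had the highest summed acute phase genes (49885 CPM, against a median of 4691 CPM in its group). Control_Rosa26KO 1, at 32469 CPM of these, was lowest in its group for 5 of the 10, and HFD_p53KO 2, at 26098 CPM, for 2. HFD_p53KO 5 had 6853 CPM of acute phase genes and 5.06 CPM of neutrophil markers. The part of both marker lists in the low droplet genes was not tested. Without the 3 libraries of highest neutrophil markers the fitted rises of Plin4 were 2.59 in Rosa26KO (adjusted p 2.82e-05) and 1.98 in p53KO (adjusted p 0.000910).

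**Figure D3:**
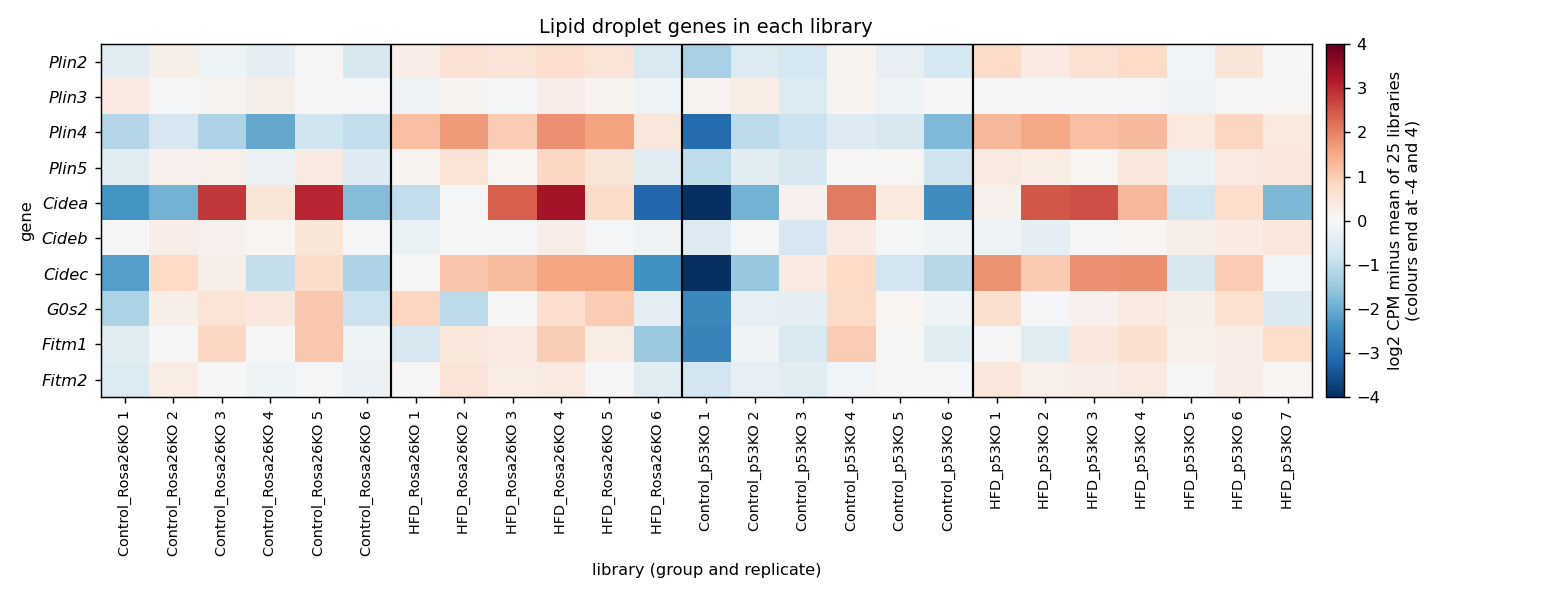
Colour gives log2 CPM minus the gene's mean over 25 libraries for the 10 genes (rows) in every library (columns, grouped by genotype and diet), with colours ending at -4 and 4. Control_p53KO 1 is the darkest blue column, low in 8 of 10 genes, and Plin4 is red in all 13 HFD libraries.

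The library names fall into 3 runs of numbers, 1941 to 1948, 1949 to 1956 and 1957 to 1965, each with 2 or 3 libraries of every group. What the runs stand for is not given in the labels. With the groups in the model, 17 genes (0.12%) differed between runs, among them the clock genes Nr1d1 (adjusted p 0.0254), Dbp (0.0307) and Npas2 (0.0315). None of the 10 droplet genes did. Cidea came closest, with geometric means of 1.41, 10.5 and 2.07 CPM in the 3 runs (adjusted p 0.184), followed by Fitm1 with 30.8, 59.7 and 45.2 CPM (adjusted p 0.225).

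Within each run the diet ratio of Plin4 was above 0 on the log2 scale in 6 of 6 genotype and run pairs, at 2.03 to 3.06 in Rosa26KO and 1.67 to 3.17 in p53KO. Plin2 was also above 0 in 6 of 6 (0.32 to 0.84 and 0.66 to 1.44), as were Plin5 (0.12 to 0.50 and 0.51 to 1.02) and Cidec (0.62 to 1.67 and 1.18 to 3.88). Fitm2 was above 0 in 5 of 6, with -0.08 in the third run of Rosa26KO. Cidea ran from -2.26 to 1.65 in Rosa26KO and from 0.16 to 4.53 in p53KO.

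**Figure D4:**
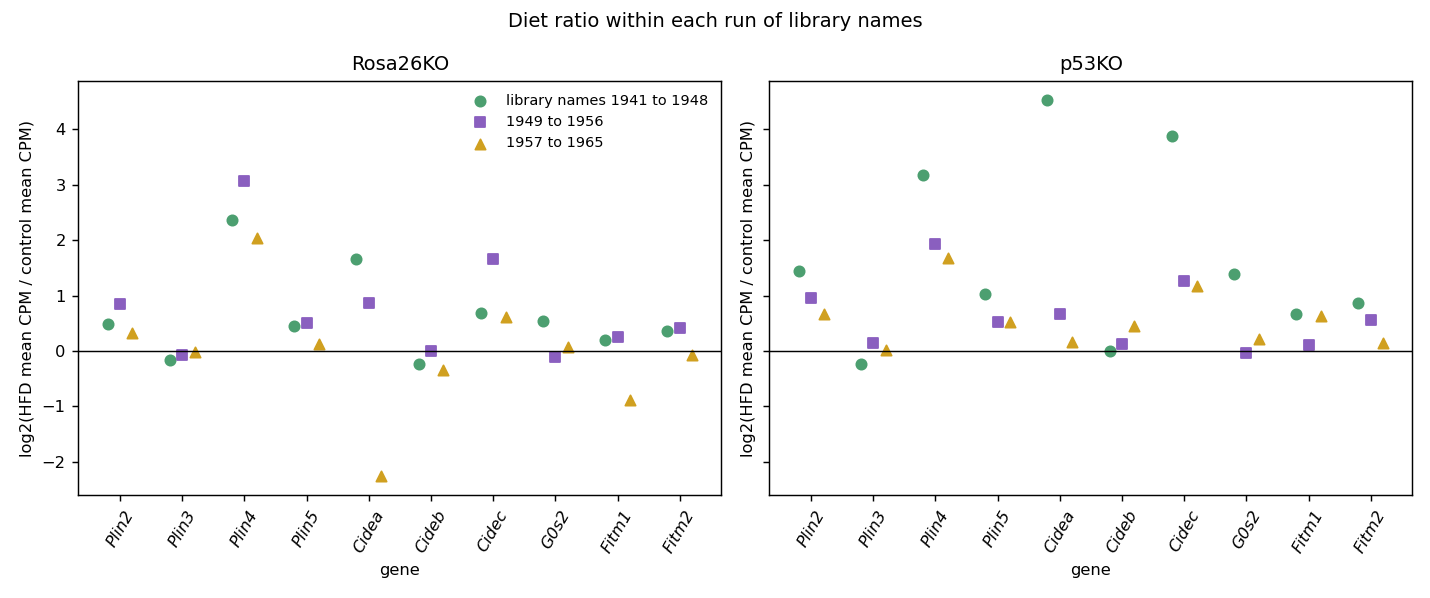
Vertical axis, log2 ratio of the mean CPM on HFD to that on control diet for each gene (horizontal axis), computed from the 2 or 3 libraries per group in each run of library names, for Rosa26KO (left) and p53KO (right). Plin4 lies at 1.67 to 3.17 in every run, while Cidea spans -2.26 to 4.53.

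Among the enzymes and cofactors that release droplet fat (8 genes), the average diet effect called 1 higher and 1 lower, with a median of 0.02. Hilpda, a small inhibitor of adipose triglyceride lipase, rose (log2 fold change 0.63, SE 0.19, edgeR adjusted p 0.0364), with 1.45 to 2.96 CPM in Control_Rosa26KO and 3.58 to 5.02 CPM in HFD_Rosa26KO. In p53KO its groups overlapped. Pnpla3, a lipase-like protein of the droplet surface driven by insulin and carbohydrate, fell by 1.90 (adjusted p 0.00624), and by 2.17 in p53KO alone (adjusted p 0.0472), from 38.6 ± 33.4 CPM (SD, n = 6) to 8.57 ± 3.41 CPM (n = 7). The lipase Pnpla2, the target of G0s2, stood at 80.04 ± 10.5 and 70.1 ± 8.47 CPM in Rosa26KO and 72.2 ± 10.1 and 80.1 ± 9.40 CPM in p53KO, on control diet and HFD in turn. In Rosa26KO none of the 8 was called, Hilpda having the smallest p (0.96, adjusted p 0.0702).

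Of 12 genes for droplet formation and triglyceride assembly none was called in any comparison (median -0.08 in the average). The smallest p with diet was that of Tmem159, a partner of seipin at budding droplets, in p53KO (-0.62, edgeR adjusted p 0.0739) and in the average (-0.41, adjusted p 0.0591), and that of Aup1 in Rosa26KO (-0.29, adjusted p 0.113). Among 17 other proteins of the droplet surface, 2 rose and 2 fell in the average, with a median of 0.03. Aifm2, a reductase that protects membranes from lipid peroxidation, rose by 0.34 (adjusted p 0.00613), and Hsd17b13, a hepatocyte droplet enzyme, by 0.47 (adjusted p 0.0255). Hsd17b13 was at 442 ± 57.0 and 613 ± 115 CPM in Rosa26KO and 432 ± 77.0 and 601 ± 179 CPM in p53KO. Nsdhl, an enzyme of cholesterol synthesis, fell by 0.84 (adjusted p 0.00826), and Cyb5r3, a cytochrome b5 reductase, by 0.46 (adjusted p 0.0238). In Rosa26KO alone 1 was called, Rab8a, a small GTPase of droplet fusion (-0.28, adjusted p 0.0477), and in p53KO none, Aifm2 having the smallest p (0.37, adjusted p 0.0525).

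Of 12 transcriptional regulators of droplet genes, 1 rose and 2 fell in the average, with a median of -0.04. Pparg, which drives fat storage genes, rose by 0.91 (SE 0.16, edgeR adjusted p 0.00120) and by 0.93 in p53KO (adjusted p 0.0280), from 16.7 ± 3.08 to 31.0 ± 8.56 CPM in Rosa26KO and from 16.2 ± 5.78 to 30.9 ± 8.24 CPM in p53KO. Mlxipl, the carbohydrate-response factor ChREBP, fell by 0.78 (adjusted p 0.00407) and by 0.97 in Rosa26KO (adjusted p 0.0388). Ppargc1a, a coactivator of fat oxidation, fell by 0.62 (adjusted p 0.0199). Between genotypes and in the interaction none of the genes of these 4 lists was called. The smallest p on control diet were those of Lipe (-0.21), Bscl2 (-0.29), Rab8a (-0.22) and Srebf1 (-0.61), and on HFD those of Pnpla3 (-1.51), Tmem159 (-0.31), Vps13a (-0.24) and Ppargc1b (0.43). In the average of both diets they were Pnpla3 (-1.25), Bscl2 (-0.14), Cyb5r3 (-0.22) and Srebf1 (-0.40), and in the interaction Lipe (0.46), Faf2 (0.22), Rab8a (0.28) and Ppargc1b (0.67).

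Most of the 10 genes varied together between libraries, while Plin3 stood apart. Over the 25 libraries, which share the 4 groups and their diets, Pearson r of log2 CPM was highest between Plin2 and Cidec (0.90, and 0.89 after group means were removed), Plin2 and Plin5 (0.89 and 0.81) and Plin2 and Fitm2 (0.88 and 0.81). Among the genes other than Plin3 and Cideb, the lowest r of any pair was 0.42 (Plin4 and Fitm1). After group means were removed it was 0.46 (G0s2 and Fitm2). Plin3 was apart from the rest, with r from -0.15 to 0.39 against the other 9. Cideb lay between, with r from 0.15 (Plin4) to 0.76 (Fitm1). These values are descriptions of these libraries.

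The 3 tested genes of most similar pattern to each member were listed by the same r over 25 libraries. For Plin2 they were Pex11a (0.95), a peroxisome division factor, Hsdl2 (0.93) and Aldh3a2 (0.92), an aldehyde dehydrogenase for fatty aldehydes. For Plin5 they were Hsdl2 (0.93), Rtfdc1 (0.93) and Paqr7 (0.91), and for Fitm2 Iars2 (0.89), Plin2 (0.88) and Rtfdc1 (0.88). For Plin4 they were Rufy4 (0.89), Fam107b (0.86) and Plin2 (0.86); within groups the r of Fam107b was 0.30 and that of Rufy4 0.88.

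Among the CIDE genes, Cidec was most like Lgals1 (0.93), which encodes galectin-1, Aldh3a2 (0.92) and Mogat1 (0.91), a monoacylglycerol acyltransferase. Cidea was most like B430212C06Rik (0.91), Mogat1 (0.84) and Blvrb (0.84), and Cideb like Nop9 (0.995), Agmat (0.94) and Pcbd2 (0.94). G0s2 was most like Acot1 (0.83), Cdh18 (0.81) and Cyp4a14 (0.81), of which Acot1 and Cyp4a14 act on fatty acids. Fitm1 was most like Clstn3 (0.95), Pebp1 (0.90) and Ephx2 (0.90), and Plin3, the steadiest, had no gene above the r of 0.75 that it had with Hlcs, Sfxn1 (0.75) and Pomgnt2 (0.73) following.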

How the data were processed

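The authors deposited raw read counts as 1 table of 24537 genes by 25 libraries, named by library per the file headers. Reads were aligned with STAR and counted with HOMER on GRCm38/mm10, per the submitters' processing notes. Versions, annotation, strand of counting and the use of multiply mapped reads were not given in the sources used here, so counts of overlapping genes can hold reads of their neighbour. Columns were tied to samples by the library names in the labels, and no column was left unmapped.

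Genes were kept by filterByExpr (minimum count 10, minimum total 15), scaled by TMM and fitted with the robust quasi-likelihood test of edgeR 4.0.16, with 1 mean per group and no covariate. P-values were two-sided and adjusted by Benjamini-Hochberg within each of 7 comparisons, with a threshold of 0.05. Single genes were also tested by exact permutation of CPM, unadjusted. Total counts ran from 16324283 to 21501281, and intervals are 95%. Simulated counts in which 200 genes were changed served to test the fit.

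The members and the lists were chosen with earlier results of these data known. The 10 members are always named. From each pathway list up to 4 called genes of smallest p are named per comparison, or else the 1 of smallest p, and for each member the 3 genes of highest Pearson r (log2 CPM, prior count 2). Alternatives were RLE scaling, no filter, no robust option, DESeq2 1.42.0, limma voom (limma 3.58.1), a replicate block, a term for runs of library names, the compared groups alone, and each library left out. A further 3 were added after the data were seen: libraries highest in neutrophil markers left out, those highest in acute phase genes left out, and the later library names alone. Gene positions and exon lengths are from GENCODE M21 and promoters from RefSeq. R 4.3.3, Python 3.11.15, scipy 1.17.1 and matplotlib 3.10.9 were used. All 25 libraries entered the reported values. Protein sequences were not analysed here.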

Additional observations from a re-analysis of the deposited data

Results flagged for a closer look

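Cidea in Control_p53KO 4 was at 11.8 CPM, while the other 5 libraries of that group ran from 0.0578 to 3.66 CPM. The gap to the nearest of them was 0.692 of the whole range, which is large for 6 libraries. It was 1 of 40 sets of a gene and a group that were looked at in this way, and chance alone marks about 1 set in 20. Cidea was also the gene of widest spread in the other groups.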

How the results depend on the processing

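The rise of Plin4 kept its direction under every setting run and its call in all but 1 named in the report. The replicate numbers were not treated as pairs in the main fit. Of same-numbered pairs of libraries from different groups, 17 of 36 correlated above 0.1 (mean r 0.116). Pairs of other numbers in the same run gave 18 of 42 (mean r 0.060), and pairs from different runs 42 of 156 (mean r -0.044). Whether the numbers stand for a pairing was not settled by these values. With a replicate block, in which HFD_p53KO 7 drops out, 549 genes were called with diet in Rosa26KO, 785 in p53KO and 2282 in the average, 1 between genotypes in the average, and 4 of the 10 members in p53KO, Plin5 (adjusted p 0.0342) and Fitm2 (0.0467) among them. Diet called 442 and 633 genes in the 2 genotypes with a term for runs, 653 and 121 in the compared groups alone (1 member in p53KO), 615 and 907 with DESeq2 (4 members in p53KO), and 3038 and 2189, with 5010 in the average, with limma voom (4 and 5 members). Without the 3 libraries high in neutrophil markers 538 genes were called in Rosa26KO (2 members), 2500 in the average and 1 between genotypes in the average. Without the 4 libraries high in acute phase genes 313 genes were called in Rosa26KO (1 member) and 327 in p53KO (2 members), and 2 members were called in the average. Library names 1949 to 1965 alone gave 90, 15 and 594 genes, with 0 members in p53KO and 1 in the average. Between genotypes DESeq2 called 1, 1 and 7 genes (control diet, HFD and average) and 5 in the interaction, and voom 2 in the average. Which of these choices fits the data best was not tested.

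With 1 library left out, diet called 93 to 509 genes in Rosa26KO and 173 to 760 in p53KO, and genotype in the average 0 to 1 (1 without Control_p53KO 3). The count moved by over 1.5 times without Control_Rosa26KO 1, 2, 4 or 5 or HFD_Rosa26KO 1, 2, 3 or 5, and without Control_p53KO 2, 4, 5 or 6 or HFD_p53KO 2, 3, 4 or 6. It rose without Control_Rosa26KO 2 and Control_p53KO 4 and fell without the others.

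Fitm2 with diet in Rosa26KO, called by limma voom, had a ratio of -0.08 on the log2 scale within the third run. Among the fits, only values that were never called changed sign. With diet in Rosa26KO these were Cidea (-0.016 with the block, -0.40 with the run term, -0.15 without the acute phase libraries), G0s2 (-0.045 without those, -0.022 in names 1949 to 1965) and Fitm1 (0.059 without the neutrophil libraries). In names 1949 to 1965 Plin3 was 0.084 in p53KO and 0.014 in the average. In the average of diet Cideb was -0.010 with voom, -0.042 without the neutrophil and -0.018 without the acute phase libraries, and Fitm1 -0.0070 without the latter. Between genotypes on control diet Plin4 was 0.11 with voom, 0.17 without the neutrophil libraries, 0.16 without the acute phase libraries and 0.31 in the later names, where Cidec was 0.097. On HFD Plin2 (-0.069) and Fitm1 (-0.090) turned without the neutrophil libraries, Cidea was 1.08 with the block, 0.56 with the run term and 0.50 with voom, and G0s2 0.091, 0.097 and 0.053 with the block, voom and without the acute phase libraries. In the genotype average Cidec was 0.14 with the block, 0.056 with voom, 0.057 without the acute phase libraries and 0.057 in the later names, and Fitm2 0.0064, 0.051 and 0.072 with the block, voom and the later names. In the interaction Plin3 (-0.072) and G0s2 (-0.15) turned without the neutrophil libraries and Cidec (-0.081) in the later names. The cause was not tested.

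With 1 library left out, signs changed for these uncalled values. Diet in Rosa26KO spanned -0.75 to 0.76 for Cidea, -0.050 to 0.38 for G0s2 and -0.35 to 0.085 for Fitm1, in p53KO -0.13 to 0.020 for Plin3, and in the average -0.0078 to 0.094 for Cideb. Genotype on control diet spanned -0.18 to 0.18 for Plin4. On HFD it spanned -0.069 to 0.15 for Plin2, -0.17 to 0.066 for Plin5, -0.66 to 0.56 for Cidea, -0.29 to 0.066 for G0s2, -0.090 to 0.32 for Fitm1 and -0.00021 to 0.18 for Fitm2. In the average it spanned -0.29 to 0.075 for Cidec and -0.072 to 0.026 for Fitm2, and the interaction -0.043 to 0.11 for Plin3.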
